A study of Homo sapiens with 13 samples.

Results

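S9.6 peaks of U2OS cells transfected with an siRNA against REXO4 (siREXO4) were compared with those of cells transfected with a control siRNA (siCtrl). The labels give neither group any other treatment, and U2OS is an established human osteosarcoma line. Each group had 3 S9.6 libraries, so 6 of the 13 libraries of the series enter the comparison, as 2 peak lists that the authors called after merging the libraries of a group. The design text of the series names processing of R-loops by REXO4 and RNaseH1 as its question; the RNaseH1 knockdown, the input and the IgG libraries were not analysed here. All peaks on chromosomes 1 to 22 and X were taken, 17145 of the 17782 in both lists: 4458 in siCtrl and 12687 in siREXO4. Peaks of different lists that overlapped by at least 1 bp were called paired, and all others unpaired. With 1 merged list per group there was no replicate spread and no test between the groups, so the values below compare 2 lists, and all intervals are exact (Clopper-Pearson) 95% intervals that cover counting error only. Differences in IP yield or depth between the groups cannot be told apart from an effect of the knockdown.

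An R-loop is a DNA-RNA hybrid with the displaced DNA strand, and it forms when a nascent transcript anneals back to its template. R-loops are known to gather just downstream of the promoters of active genes, where G-rich RNA pairs with a C-rich template, and at some gene ends. RNase H enzymes degrade the RNA of hybrids, helicases such as DHX9 unwind them, and splicing and export factors that coat the transcript limit their formation. REXO4 is a nuclear protein of the REXO exonuclease family. The S9.6 antibody binds DNA-RNA hybrids, and DRIP-seq sequences the sheared DNA that it pulls down. A peak is a stretch where the caller found more fragments than its local background, its summit is the base of highest coverage, and its fold enrichment is the summit coverage over that background.

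The promoters of 4 genes that lead the classes described below show what these loci look like. HEXIM1 and JUND hold the strongest paired peaks that cover a transcription start site (TSS) listed in RefSeq, and SUPT20H and ZFP91 the strongest such siREXO4 peaks at genes without any siCtrl peak. Each window runs on the coding strand, 5′ to 3′, from 250 bases before the TSS to 50 after it (RefSeq, GRCh38.p14). Capitals mark runs of 4 or more G. The windows are chr17:45148225-45148524 on the + strand for HEXIM1, chr19:18281573-18281872 on the - strand for JUND, chr13:37059639-37059938 on the - strand for SUPT20H and chr11:58578813-58579112 on the + strand for ZFP91.
HEXIM1: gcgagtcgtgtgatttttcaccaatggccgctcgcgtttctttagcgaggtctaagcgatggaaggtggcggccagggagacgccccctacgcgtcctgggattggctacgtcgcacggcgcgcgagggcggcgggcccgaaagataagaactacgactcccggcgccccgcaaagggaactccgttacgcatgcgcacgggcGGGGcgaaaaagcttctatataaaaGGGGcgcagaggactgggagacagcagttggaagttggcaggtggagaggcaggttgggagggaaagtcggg
JUND: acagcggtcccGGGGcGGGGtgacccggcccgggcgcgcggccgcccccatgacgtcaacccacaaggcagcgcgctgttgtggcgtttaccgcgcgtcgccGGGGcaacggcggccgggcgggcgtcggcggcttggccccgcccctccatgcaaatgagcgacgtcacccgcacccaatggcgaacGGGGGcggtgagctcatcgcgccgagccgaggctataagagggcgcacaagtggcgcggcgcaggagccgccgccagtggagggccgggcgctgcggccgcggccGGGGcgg
SUPT20H: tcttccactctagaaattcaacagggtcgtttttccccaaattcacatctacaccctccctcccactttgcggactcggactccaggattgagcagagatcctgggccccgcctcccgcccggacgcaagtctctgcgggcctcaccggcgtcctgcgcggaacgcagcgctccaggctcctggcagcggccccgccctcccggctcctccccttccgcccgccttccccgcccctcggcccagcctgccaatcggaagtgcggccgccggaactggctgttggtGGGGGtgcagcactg
ZFP91: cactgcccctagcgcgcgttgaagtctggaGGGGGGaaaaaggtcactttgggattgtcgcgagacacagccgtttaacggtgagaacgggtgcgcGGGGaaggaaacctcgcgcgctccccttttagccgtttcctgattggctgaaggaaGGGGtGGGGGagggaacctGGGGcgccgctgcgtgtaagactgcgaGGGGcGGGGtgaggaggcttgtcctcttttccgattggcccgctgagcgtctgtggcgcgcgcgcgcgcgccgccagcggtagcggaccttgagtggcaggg
The HEXIM1 window was 62.0% G and C with 2 such runs, and the JUND window 77.0% with 5. The SUPT20H window, at 67.3% G and C, held 1 G run and 6 runs of 4 or more C, and the ZFP91 window, at 65.3%, held 7 G runs and 2 C runs. The siREXO4 summits lay past the printed windows, 140 bp downstream of the TSS at HEXIM1, 162 bp at JUND, 216 bp at SUPT20H and 250 bp at ZFP91.

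Most siREXO4 peaks had no control partner. The share of control peaks found again varied with the q-value limit, overlap rule and list length, but hardly with a fold limit. In siCtrl, 1859 of 4458 peaks were paired (41.7%, interval 40.2 to 43.2%), and in siREXO4, 1836 of 12687 (14.5%, 13.9 to 15.1%). That left 2599 siCtrl peaks without a siREXO4 peak and 10851 siREXO4 peaks without a siCtrl peak. With −log10 q of at least 5 in both lists the shares were 55.1 and 12.2%, and with that limit on siCtrl alone 64.6 and 7.65%. A fold of at least 5 in both lists gave shares of 41.3 and 12.8%. They were 23.8 and 8.36% with a reciprocal overlap of 50%, and 25.8 and 25.01% with the siREXO4 list limited to the length of siCtrl. The paired peaks took up 995 kb of the 1872 kb covered by siCtrl peaks and 1493 kb of the 6580 kb covered by siREXO4 peaks. Of the 1901 pairs, 1702 joined 1 peak to 1 peak. A siREXO4 peak met 2 siCtrl peaks in 57 cases and 3 in 4 cases, whereas 36 siCtrl peaks met 2 siREXO4 peaks and 3 met 3.

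Control peaks near a TSS were found again far more often than those farther away, although most paired control peaks also lay farther away. Of 413 siCtrl summits within 1 kb of a listed TSS, 395 belonged to paired peaks (95.6%, 93.2 to 97.4%), against 1375 of 3777 farther away (36.4%, 34.9 to 38.0%). The gap held at every strength. When siCtrl peaks were divided into 4 classes of equal size from the lowest to the highest fold enrichment, the paired share near a TSS was 93.2, 89.1, 94.4 and 99.0%, and farther away it was 32.3, 27.3, 33.6 and 54.5%. Pairing also differed with width: all 134 siCtrl peaks of 1000 bp or more were paired (lower limit 97.3%), but only 178 of the 902 at the minimum width of 266 bp (19.7%). A TSS was listed for 15812 of 19974 protein-coding genes and for none on chromosome 8, so chromosome 8 is left out of all TSS measures and the farther group holds some summits at unlisted start sites.

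**Figure D1:**
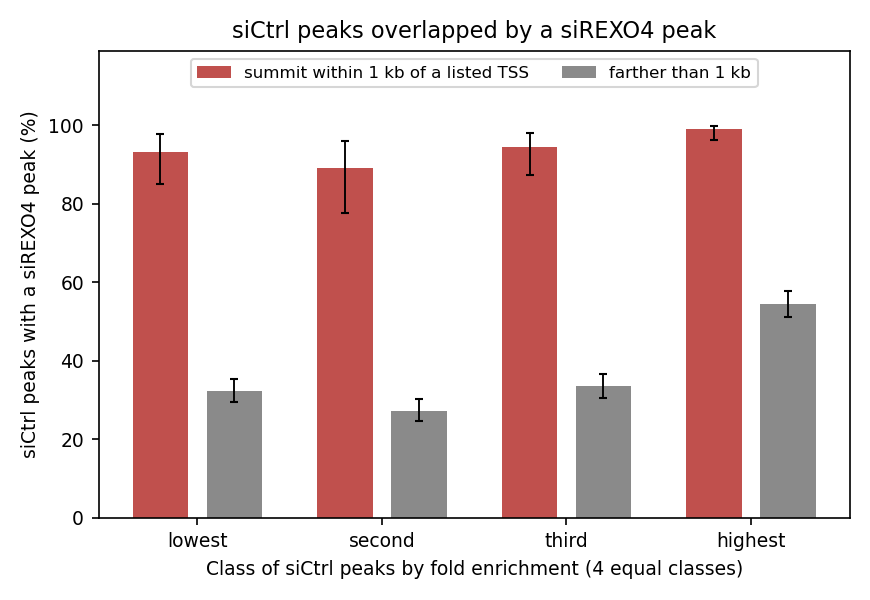
Share of siCtrl peaks overlapped by a siREXO4 peak (vertical axis, percent) in 4 equal classes of siCtrl fold enrichment (horizontal axis), for summits within 1 kb of a listed TSS and farther away, with exact 95% intervals for counting error. The share near a TSS lies between 89.1 and 99.0%, and farther away between 27.3 and 54.5%.

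Seen from the siREXO4 side, the paired shares had another order. Near a TSS, 390 of 3159 siREXO4 peaks were paired (12.3%, 11.2 to 13.5%), and farther away 1358 of 8918 (15.2%, 14.5 to 16.0%). In the lower 3 of 4 equal classes of siREXO4 fold enrichment, pairing near a TSS was rare, at 0.962, 1.20 and 1.74%, against 9.44, 10.7 and 15.2% farther away. In the highest class it was 22.2% near a TSS and 34.2% farther away. The numbers of control peaks bound these shares. Near a TSS there were 413 siCtrl summits for 3159 siREXO4 summits, and farther away 3777 for 8918. The shares at the 2 positions therefore have unlike upper limits, and no difference in pairing is read from their order. Of the start-site peaks in the siREXO4 list, 2769 had no control counterpart.

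Paired peaks were wider after the knockdown. Over the 1702 pairs of 1 peak with 1 peak, the median width was 410 bp in siCtrl (quartiles 313 and 579 bp) and 630 bp in siREXO4 (381 and 1053 bp). The median ratio of siREXO4 to siCtrl width was 1.34 (0.955 to 2.09). The siREXO4 peak was the wider one in 1211 pairs (71.2%), at least 2 times as wide in 465 (27.3%), and at most 0.5 times as wide in 25. In 789 pairs (46.4%) it ran past both edges of the siCtrl peak, and in 178 (10.5%) it lay inside it.

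The widening was concentrated at start sites. In the 376 pairs with a siCtrl summit within 1 kb of a TSS, the median width was 436.5 bp in siCtrl and 1184 bp in siREXO4, and the ratio was 2.39 (1.85 to 3.28). All but 3 of them were wider in siREXO4 (373, 99.2%), and 353 (93.9%) ran past both edges of the control peak. In the 1239 pairs farther away, the medians were 404 and 496 bp, the ratio was 1.16 (0.899 to 1.64), and 788 (63.6%) were wider. No pair near a TSS narrowed to 0.5 times its control width, whereas 24 farther pairs did.

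**Figure D2:**
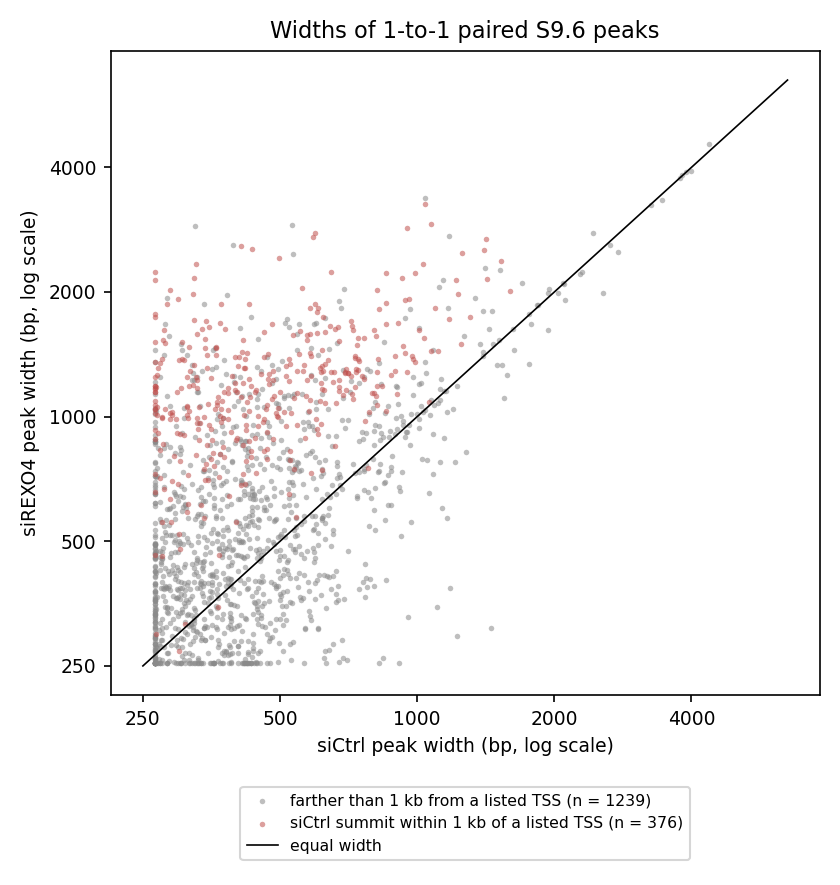
Width of each 1-to-1 pair in siCtrl (horizontal axis, bp, log scale) and siREXO4 (vertical axis, bp, log scale), with red points for siCtrl summits within 1 kb of a listed TSS, grey points for the others and a line at equal width. Of the red points, 373 of 376 lie above the line, while 788 of 1239 grey points do.

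Coverage at the summit followed the same division. The fragment number at a summit could be recovered from the deposited fold and p-value in 4439 siCtrl and 12636 siREXO4 peaks. The lowest local background, which stands for the expected genome-wide coverage, was 1.28 fragments in siCtrl and 1.41 in siREXO4, and siREXO4 coverage was divided by their ratio of 1.10 before the lists were compared. Near a TSS, 363 pairs with both values had a median of 18 fragments in siCtrl and 60 in siREXO4, a scaled ratio of 2.93 (quartiles 2.11 and 3.99). The scaled siREXO4 coverage was the higher one in 355 of them (97.8%). Farther away, 1212 pairs had medians of 14 and 16 fragments and a scaled ratio of 1.01 (0.841 to 1.27), and 621 (51.2%) were higher.

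This division was present in every class of control strength. Near a TSS, the scaled ratio was 2.81, 2.87, 2.90 and 2.94 from the lowest to the highest class of siCtrl fold. Farther away it was 1.10, 1.09, 0.988 and 0.946. The classes and the ratio share the siCtrl summit count, so no trend over the classes is read from them. Pairs also had to be called in both lists, which limits how low a ratio can be. The width ratio ran from 2.17 to 3.28 over the classes near a TSS and from 1.09 to 1.28 farther away. The ranges of medians for the 2 positions did not overlap in either measure.

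**Figure D3:**
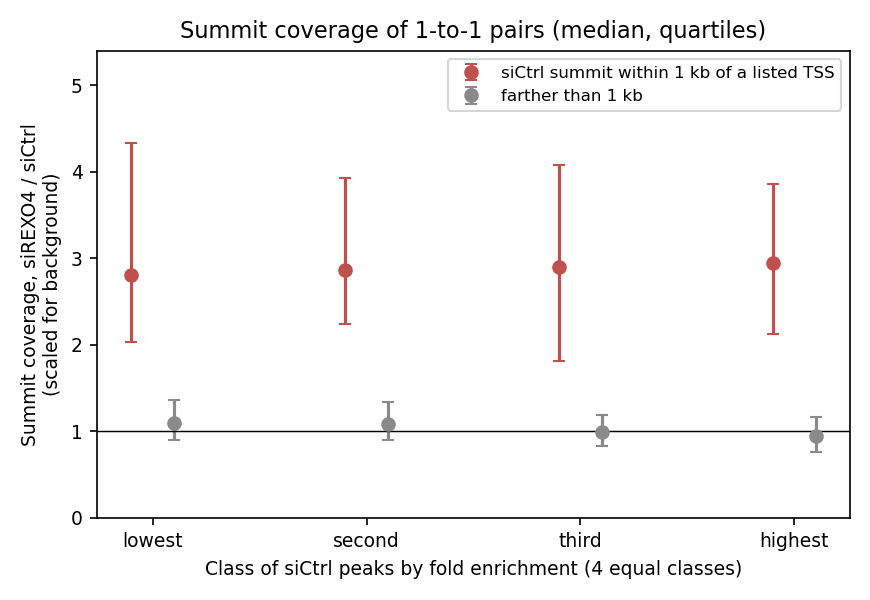
Scaled summit coverage of 1-to-1 pairs as siREXO4 over siCtrl (vertical axis, ratio) in 4 equal classes of siCtrl fold enrichment (horizontal axis), with points for medians, bars for quartiles over pairs and a line at 1. Medians lie between 2.81 and 2.94 near a TSS and between 0.946 and 1.10 farther away.

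Summits of paired peaks stayed close to each other. The median distance between the siCtrl and siREXO4 summit was 83 bp (quartiles 32 and 168 bp), within the sonicated fragment length of about 500 bp given in the labels' protocols. It was at most 100 bp in 973 pairs (57.2%) and 0 in 13. Near a TSS it was 60 bp, and farther away 91 bp. The longest shift, 1110 bp, was in the transcription factor gene MLXIP, where a siCtrl peak of 2764 bp (chr12:122092660-122095423) met a siREXO4 peak of 2497 bp. ERFL (930 bp) and HMCN2 (887 bp) followed, both inside the gene. At the zinc finger gene ZNF768 the summit lay 111 bp downstream of the TSS in siCtrl and at -704 bp, upstream of it, in siREXO4, a shift of 815 bp, and the peak widened from 266 to 1513 bp.

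Ranks by fold enrichment, taken within each list, were related across pairs but far from the same. Spearman's rho over the 1702 pairs was 0.37 for fold, 0.48 for the −log10 p and 0.41 for width, as descriptions over loci that share their libraries. When the pairs were ranked by fold, 435 were in the top class of 4 in siCtrl and 425 in siREXO4, and 208 were in both, which is 47.8% and 48.9%. Near a TSS, 303 of 376 pairs (80.6%) stood higher among the pairs in siREXO4 than in siCtrl, against 486 of 1239 (39.2%) farther away. The median siREXO4 peak of the pairs near a TSS stood at percentile 96.5 of its whole list, and that of farther pairs at 62.1.

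Among pairs at protein-coding genes, those that ranked highest in both lists show strong loci of both kinds. At HEXIM1, an inhibitor of the elongation factor P-TEFb, the siCtrl peak was 1073 bp wide (chr17:45148058-45149130) with a fold of 41.0 over its own background. The siREXO4 peak there was 2913 bp wide (chr17:45147179-45150091), with a fold of 177, the highest of its list. At JUND, which encodes a subunit of the AP-1 transcription factor, the width went from 1253 bp (chr19:18281037-18282289) to 2480 bp. EPHA2, an ephrin receptor gene, went from 741 to 1552 bp, and SETD5, a gene of a SET domain protein, from 1420 to 2151 bp. Peaks at these 4 genes lay over or beside the TSS.

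Other leading pairs changed little in width. An intronic or exonic position could not be assigned to the HFM1 peak, which lay inside that DNA helicase gene and measured 633 and 652 bp. The pair inside PTPRS, a receptor tyrosine phosphatase gene, measured 1009 and 1197 bp. At the start of EIF4A1, the gene of a translation initiation helicase, the widths were 1598 and 2015 bp.

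At protein-coding genes, the 5 largest width ratios were at gene starts or boundaries. At HMGA2, a chromatin protein gene, a siCtrl peak of 326 bp (chr12:65824511-65824836) met a siREXO4 peak of 2890 bp, a ratio of 8.87, and summit coverage was 11 and 31 fragments. DYRK1A, a kinase gene, followed with 266 and 2241 bp and 14 and 37 fragments. At GPR3, S100A2 and TTC19 the ratios were 8.05, 7.14 and 7.06, with siREXO4 coverage of 53, 64 and 72 fragments. HMGA2 has no TSS in the table used, so its pair is counted among the farther ones.

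The 5 smallest ratios at such genes were all away from a listed TSS. The pair in ETNK1, an ethanolamine kinase gene, had 1220 bp in siCtrl (chr12:22630439-22631658) and 296 bp in siREXO4, a ratio of 0.243. Pairs in DYNC1H1, the dynein heavy chain gene, in CMIP and in SYT2 had ratios of 0.309, 0.314 and 0.326. One of 2 pairs in the ribosomal protein gene RPL27, 3892 bp downstream of its TSS, had 673 and 255 bp. Coverage at these 5 loci was 15 to 19 fragments in siCtrl and 9 to 23 in siREXO4, and CMIP was the one with more fragments in siREXO4.

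At protein-coding genes, the largest rises in rank were at gene starts or boundaries and the largest falls away from the TSS. MRPL55, a mitochondrial ribosomal protein gene, held a pair at percentile 1.92 of siCtrl and 99.1 of siREXO4, with 20 and 103 fragments. At UBE2D3, which encodes a ubiquitin-conjugating enzyme, both summits lay at the same base, 335 bp downstream of the TSS. Coverage there was 14 fragments in siCtrl and 105 in siREXO4, and the width went from 433 to 2546 bp. MROH1 (16 and 176 fragments) and PDP1 (15 and 90) completed the rises, both within 2 kb of a gene boundary. The largest fall was 4276 bp downstream of the TSS of RPL21, from percentile 97.8 to 1.59, with 21 and 11 fragments. Falls in ADCYAP1R1 (22 and 13 fragments), RASA1 (14 and 15) and MPP3 (16 and 9) were inside the genes.

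A few peaks met more than 1 peak of the other list. Single siREXO4 peaks met 3 siCtrl peaks in PPP6R2, a phosphatase regulatory subunit gene (3496 bp), and in DCBLD2 (1131 bp). In MIDN, 1 siREXO4 peak of 1776 bp with 128 fragments met 2. In the other direction, a siCtrl peak of 3051 bp in FOSL1, an AP-1 subunit gene (chr11:65893882-65896932), met 3 siREXO4 peaks of 674, 1236 and 3109 bp. The last of these also met a further siCtrl peak of 1265 bp, so the FOSL1 region was a chain of overlapping calls and not a plain split. Some of the 36 siCtrl peaks that met 2 siREXO4 peaks lay at LOC102724250 near the start of chromosome 1, where near-identical copies make read placement uncertain. Others lay elsewhere, as in FOSB and HNRNPL.

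Unpaired siCtrl peaks were narrow, lacked high folds and lay away from promoters. Their median width was 306 bp (maximum 887 bp), and 724 of 2599 (27.9%) had the minimum width. Their median fold was 4.75, not far below the 5.09 of paired siCtrl peaks. Their highest fold was 9.45, and none reached 10, against 91 of 1859 paired siCtrl peaks. Only 18 of 2420 summits on chromosomes with listed TSSs lay within 1 kb of one (0.744%, 0.441 to 1.17%), against 395 of 1770 paired siCtrl summits (22.3%, 20.4 to 24.3%). Most lay inside genes more than 2 kb from a boundary (1469, 56.5%) or between genes (726, 27.9%). The nearest siREXO4 peak was a median of 36342 bp away, and it lay within 500 bp in 106 cases.

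Among unpaired siCtrl peaks at protein-coding genes, the highest folds, from 7.47 to 7.94, were at FZD6, a Wnt receptor gene, with 21 fragments, UAP1 (17), ANKRD55 (17) and UACA (19). COL6A6 (19 fragments), a collagen gene, and OPCML, BIRC6 and NMD3 (16 each) followed. FZD6 lay within 2 kb of a gene boundary and the other 7 inside genes. The distance to the nearest siREXO4 peak was 2566 bp at COL6A6, 4078 bp at FZD6 and 671140 bp at NMD3. Each of these 8 peaks had 2.52 to 2.68 times the coverage needed for a call against siREXO4 background after scaling. Over all unpaired siCtrl peaks, 8.39% reached 2 times that limit. Reaching the limit itself was no criterion for siCtrl peaks, since the lowest −log10 p was 3.78 in siREXO4 and 4.13 in siCtrl.

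Unpaired siREXO4 peaks, in contrast, were as often at start sites as paired ones or more often. Of 10329 such summits, 2769 lay within 1 kb of a TSS (26.8%, 26.0 to 27.7%), against 390 of 1748 paired siREXO4 summits (22.3%, 20.4 to 24.3%). Within 2 kb of any gene boundary the shares were 44.5 and 45.6%. The median width was 362 bp, 690 peaks had a fold of at least 10, and the nearest siCtrl peak was a median of 90827 bp away. Only 202 lay within 500 bp of a siCtrl peak, a share of 1.86%.

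Start-site peaks in the unpaired siREXO4 set were the stronger ones, though below the paired ones. Near a TSS their median width was 579 bp, fold 5.98 and coverage 21 fragments, against 330 bp, 4.58 and 12 fragments farther away. Paired siREXO4 peaks near a TSS had 1189 bp, a fold of 16.5 and 60 fragments. Of the unpaired peaks near a TSS, 1167 (42.1%) had at least 2 times the coverage needed for a call against siCtrl background, and farther away 624 (8.26%). Over the whole unpaired siREXO4 set, 94.9% reached that limit and 17.2% reached 2 times it. Reaching it once was nearly fixed in advance, since these peaks were called at a −log10 p of at least 3.78, near the 4.13 of siCtrl. The limit takes no account of siCtrl coverage at the locus.

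At genes without any siCtrl peak, the leading siREXO4 peaks were mostly at gene boundaries. SUPT20H, which encodes a component of the SAGA complex, held a peak of 1284 bp (chr13:37059007-37060290) with 97 fragments, 12.5 times the siCtrl limit. ZFP91, a zinc finger gene, held one of 1348 bp (chr11:58578500-58579847) with 93 fragments. RAMP3, a receptor activity-modifying protein gene, had 117 fragments, and FBRS 113. The peak in CD8A, a T-cell coreceptor gene, had the highest fold of the set, at 148, and its summit lay 1275 bp downstream of the TSS. The nearest siCtrl peaks to these 5 were between 90266 and 1295677 bp away.

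Summits near start sites took the same place in 3 of the 4 classes. Their median position was 155 bp downstream of the TSS in paired siCtrl peaks, 150 bp in paired siREXO4 peaks and 157 bp in unpaired siREXO4 peaks. The share on the downstream side was 76.7, 77.9 and 75.6%. The 18 unpaired siCtrl summits had a median position of -132.5 bp, upstream, and 7 were downstream (38.9%). Gene ends, taken as summits within 1 kb of an end and not of a TSS, held few peaks in each class: 3.50% of paired and 1.74% of unpaired siCtrl summits, and 3.20% and 2.75% in siREXO4.

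**Figure D4:**
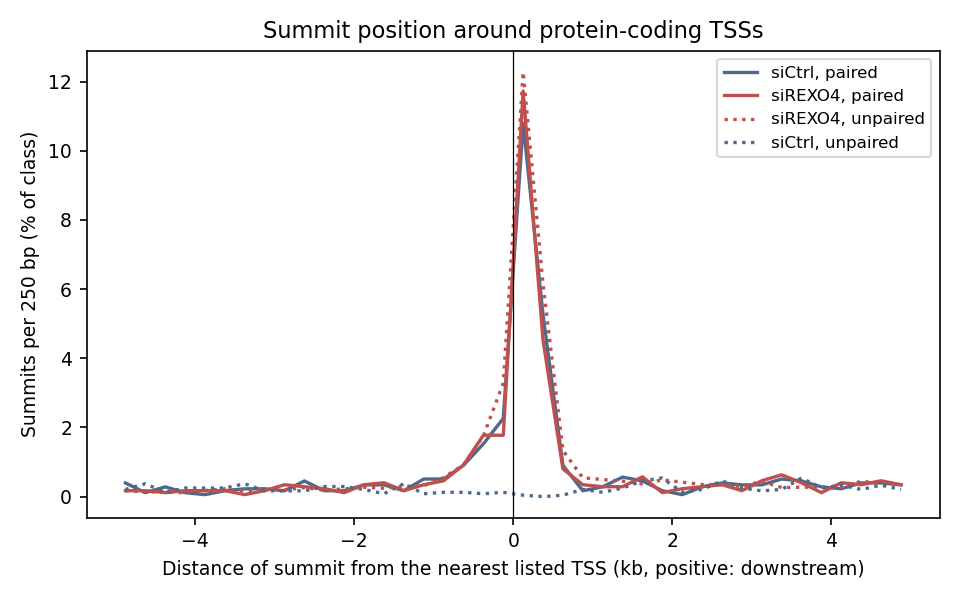
Share of summits per 250 bp (vertical axis, percent of the class) against distance from the nearest listed TSS (horizontal axis, kb, positive downstream), for paired (solid) and unpaired (dotted) peaks of siCtrl (blue) and siREXO4 (red). Both paired classes and the unpaired siREXO4 class peak just downstream of the TSS, and the unpaired siCtrl class, with 0.744% of its summits within 1 kb, shows no peak.

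Promoters that both lists overlapped and promoters that siREXO4 alone overlapped had similar base composition. Of 22132 listed 300-bp windows, 362 were overlapped by peaks of both lists, 2936 by siREXO4 alone, 4 by siCtrl alone and 18830 by neither. Median G and C content was 68.7% for both lists, 68.0% for siREXO4 alone and 61.0% for neither. GC skew, the excess of G over C divided by their sum, was 0.172, 0.143 and 0.0625 in the 50 bases after the TSS. The motif GGGG was on the coding strand in 86.5, 88.5 and 79.8% of windows, against 81.1% of all windows, and on the template strand in 84.0, 85.6 and 77.6%, against 78.8% of all.

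Counted by gene (span plus 2 kb on either side), 1850 of 19974 protein-coding genes held peaks of both lists (9.26%). A further 4881 (24.4%) held siREXO4 peaks only and 543 (2.72%) siCtrl peaks only. With the siREXO4 list limited to the length of siCtrl, 2431 genes held siREXO4 peaks only and 1112 siCtrl peaks only. With −log10 q of at least 5 in both lists, 744 genes held both and 183 siCtrl peaks only, and with a fold of at least 5, 795 and 337. Of the 2393 genes with a siCtrl peak, 77.3% thus also held a siREXO4 peak, while 27.5% of the 6731 genes with a siREXO4 peak held a siCtrl peak. In 660 of the 1850 genes with both, no peaks overlapped. Median gene length was 44.7 kb for both, 31.5 kb for siREXO4 only, 78.3 kb for siCtrl only and 18.7 kb for neither. At start sites alone the lists were more one-sided. Of 15812 genes with a listed TSS, 452 had summits of both lists within 1 kb (2.86%), 2896 of siREXO4 only (18.3%) and 12 of siCtrl only (0.0759%). The 12 were CUL2, EIF2D, EIF4G3, MAPK8IP3, NDUFA13, NHP2, RIT1, RUFY3, SLC19A3, TDRD3, ZNF19 and ZNHIT2.

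Immediate early genes, which are transcribed within minutes of a stimulus, often had peaks in both lists. Of 22 genes, 15 had peaks of both lists (68.2%, against 9.26% of all genes), 5 of siREXO4 only (22.7%, near the 24.4% of all genes) and none of siCtrl only. At DUSP1, a MAP kinase phosphatase gene, the TSS pair measured 615 and 1205 bp, with 42 fragments in siCtrl and 148 in siREXO4. At JUN, an AP-1 subunit gene, it measured 854 and 2226 bp, with 32 and 169 fragments. FOSL2 had 602 and 1785 bp and 24 and 121 fragments. Members of this and the following lists were mostly named with pairs first and then by siREXO4 fold. High siREXO4 values at the named members are therefore partly given by that choice. Some pairs of the immediate early list changed less, as at ATF3 (17 and 18 fragments) and EGR1 (16 and 27). The 5 siREXO4-only genes were KLF2, KLF4, KLF6, KLF10 and IER5, of which the first 4 encode Krüppel-like factors.

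Genes of the translation machinery were covered in both lists. Of 79 cytosolic ribosomal protein genes, 37 held peaks of both lists (46.8%, against 9.26% of all genes), 28 of siREXO4 only (35.4%, against 24.4%) and 3 of siCtrl only (3.80%, against 2.72%), RPL14, RPL28 and RPL34. The pair at the start of RPL18 went from 344 to 1705 bp and from 23 to 51 fragments, and that of RPL4 from 514 to 951 bp and 34 to 55 fragments. Away from the TSS, a pair in RPS3A had 342 and 288 bp with 11 and 14 fragments. Among 26 translation factor genes, 15 had both (57.7%), 7 siREXO4 only (26.9%, near the share of all genes) and none siCtrl only. EEF2, the elongation factor that moves the ribosome along, went from 699 to 1303 bp and from 24 to 71 fragments. Multigene families with processed pseudogenes, as for ribosomal proteins, can share reads between copies, so their peaks are uncertain.

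All 26 genes of the splicing factor and hnRNP list held a siREXO4 peak, 17 with siCtrl peaks (65.4%, against 9.26% of all genes) and 9 without (34.6%, against 24.4%). At the start of HNRNPD, which encodes an RNA-binding protein of the hnRNP family, a peak of 370 bp and 16 fragments met one of 1684 bp and 80 fragments. SRSF7, a splicing factor gene, had 902 and 1134 bp with 43 and 154 fragments. A pair of SRSF1, another splicing factor gene, 9257 bp downstream of the TSS, had 424 and 461 bp, with 23 fragments in siCtrl and 12 in siREXO4. The start-site pair of SRSF1 went the other way, with 674 and 1155 bp and 12 and 31 fragments. Inside TRA2A, a pair had 266 and 617 bp with 9 and 16 fragments. The siREXO4-only members included HNRNPK, HNRNPA1, U2AF2 and SF3B1.

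Ribosome production genes were covered as well. Of 38 ribosome biogenesis and nucleolar genes, 9 held both (23.7%, against 9.26% of all genes), 15 siREXO4 only (39.5%, against 24.4%) and 2 siCtrl only (5.26%, against 2.72%), NHP2 and NOC3L. NPM1, which encodes the nucleolar protein nucleophosmin, had a start-site pair of 755 and 1252 bp with 35 and 109 fragments. Fibrillarin (FBL), the methyltransferase of box C/D snoRNPs, had 442 and 732 bp with 15 and 34 fragments. Of 17 snoRNA host genes, 7 held both (41.2%), 3 siREXO4 only (17.6%) and none siCtrl only, and TAF1D went from 582 to 1095 bp and from 39 to 80 fragments. Host genes without a protein are counted here although the share of 9.26% is over protein-coding genes.

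Of 15 heat shock and chaperone genes, 6 had both (40.0%, against 9.26% of all genes) and 5 siREXO4 only (33.3%, against 24.4%). The TSS pair of DNAJB1, a co-chaperone gene, went from 620 to 1737 bp and from 32 to 105 fragments, and that of HSP90AA1 from 316 to 1477 bp and from 17 to 70 fragments. Of 20 p53 target genes, 5 had both, 11 siREXO4 only (55.0%, against 24.4% of all genes) and SESN1 siCtrl only. The shares with both and with siCtrl only were also above those of all genes (9.26 and 2.72%), although the latter rested on 1 gene. GADD45A, a growth arrest gene, had a pair of 1137 and 2135 bp, with folds of 14.8 and 93.1 in their own lists. CDKN1A, the gene of the p21 cell cycle inhibitor, held 1 siREXO4 peak, with a fold of 16.7, and no siCtrl peak.

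Genes of the nuclease list and of the R-loop helicase and processing list were covered to a mixed extent. Of 11 RNase H and REXO nuclease genes, 2 had both (18.2%, against 9.26% of all genes) and 5 siREXO4 only (45.5%, against 24.4%), RNASEH1, RNASEH2C, REXO1, REXO2 and AEN. The TSS pair of ISG20, an exonuclease gene, had 460 and 986 bp with 20 and 45 fragments. REXO4 itself (chr9:133406058-133418172) held no peak in either list. A peak does not measure the transcript, so this says nothing of the knockdown. Of 34 R-loop helicase and processing genes, 11 had both (32.4%) and 8 siREXO4 only (23.5%, near the 24.4% of all genes). TDRD3 alone was siCtrl only (2.94%, near the 2.72% of all genes). At DDX21, an RNA helicase gene, the pair had 731 and 1180 bp with 35 and 89 fragments. Inside PCF11, a gene for transcription termination, the pair had 341 and 448 bp with 15 fragments in each. PCF11 also held an unpaired siREXO4 peak with a fold of 21.6, against 5.45 for the siREXO4 peak of the pair. MUS81, AQR and SAMHD1 were siREXO4-only members.

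Of 36 replication and origin licensing genes, 17 held siREXO4 peaks only (47.2%, against 24.4% of all genes) and 6 both (16.7%, against 9.26%). The 3 with siCtrl peaks only (8.33%, against 2.72%) were GINS3, MCM10 and RFC4. At the start of CDC6, an origin licensing gene, the pair had 975 and 1401 bp with 15 and 47 fragments, while a pair in MCM7 had 356 and 254 bp with 11 and 14. Of 69 replication-dependent histone genes, 14 had both (20.3%) and 14 siREXO4 only (20.3%), against 9.26 and 24.4% of all genes. They lie in clusters, so 1 peak can count for neighbouring genes, as the peaks of H2BC5 (663 and 1078 bp, 64 and 136 fragments) did for H1-4. Copies of histone genes can also share reads.

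Of 30 genes of other tissues, 2 had both (6.67%, near the 9.26% of all genes) and 3 siREXO4 only (10.0%, against 24.4%). Of 22 osteosarcoma and mesenchymal genes, none had both, while BGLAP, RUNX2 and COL5A1 held siREXO4 peaks only (13.6%). Peaks do not measure expression of these markers of the line. Of 22 common fragile site genes, 4 had both (18.2%), 3 siREXO4 only (13.6%) and 2, DLG2 and NAALADL2, siCtrl only (9.09%, against 2.72% of all genes). These genes are long (DLG2 spans chr11:83455012-85628373) and a longer span can hold more peaks. The shares of all genes are not matched for length. In CCSER1 and CSMD1, which had both, no peaks overlapped. DAB1, a gene of this list, held a start-site pair of 546 and 1286 bp with 17 and 109 fragments.

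**Figure D5:**
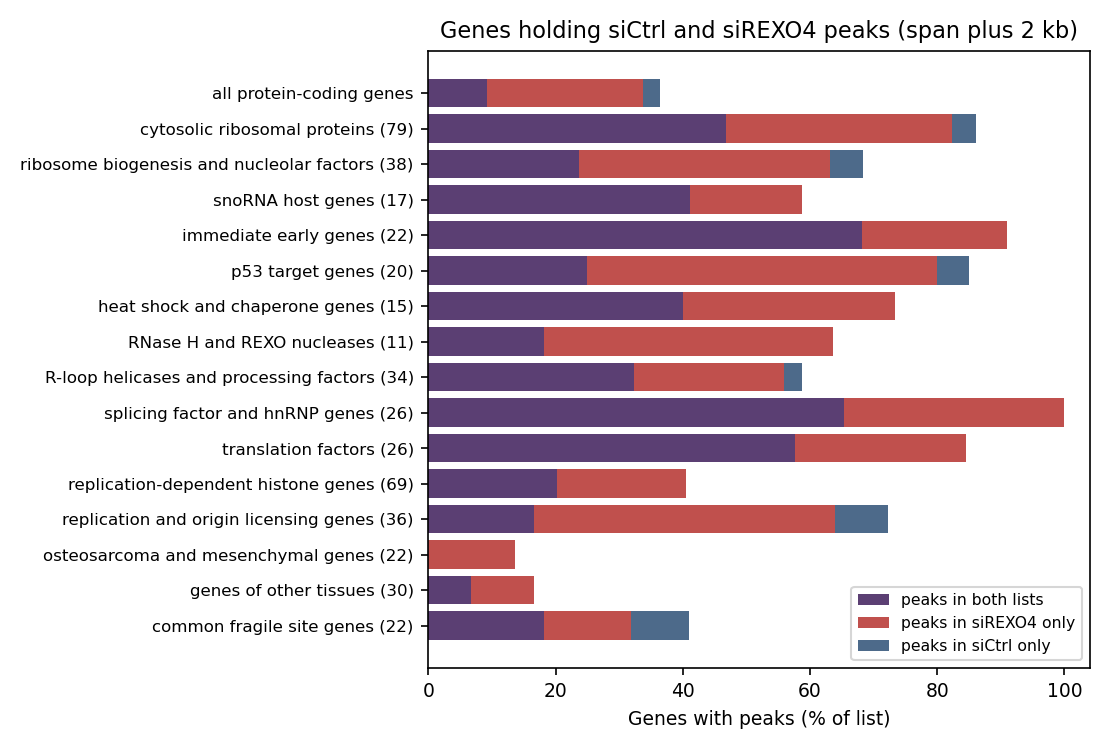
Share of genes in each list (horizontal axis, percent; number of genes in brackets) with peaks in both lists, in siREXO4 only or in siCtrl only, beside all protein-coding genes. Peaks in both lists were found in 68.2% of immediate early and 65.4% of splicing factor genes, against 9.26% of all protein-coding genes.

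Some genes held many peaks. DCBLD2, a membrane receptor gene of 106 kb, had 13 siCtrl and 17 siREXO4 peaks that formed 14 pairs. YWHAZ, which encodes a 14-3-3 protein, had 10 pairs, and VCL, the vinculin gene, 8. Without any siCtrl peak, RNF43 and ZBTB20 had 9 siREXO4 peaks each and ABCC2 had 8. In the other direction no gene exceeded 3 siCtrl peaks without a siREXO4 peak. CNBD1, KIAA0825 and METTL21A were among the 4 genes with 3, and 499 of the 543 siCtrl-only genes rested on 1 peak.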

How the data were processed

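U2OS S9.6 libraries (3 siCtrl, 3 siREXO4) were deposited as 1 merged peak list per group, with no read depth. Per the submitters' processing notes, the build was hg38 and the tools included MACS2 2.1.0.20150731, HISAT2 2.2.1 and Trim Galore 0.6.10, besides SAMtools 1.17, deepTools 3.5.1 and Cufflinks. The role of each, the control library and the handling of duplicates are not given in these notes. Per the labels' protocols, a second strand was synthesized before library preparation, so RNA in the pull-down could also be sequenced. The deposited columns give the authors' fold enrichment as a ratio, −log10 of p and q, a score and the summit offset; the lowest −log10 q was 1.34 (siCtrl) and 1.32 (siREXO4), near a q-value of 0.05.

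Groups came from the sample titles. Folds were ranked within their own list only. Fragments k and background b at a summit were solved from fold = (k + 1)/(b + 1) and the upper Poisson tail, for −log10 p up to 300, within 0.001. The calling limit is the fewest fragments that reach the other list's lowest −log10 p at the scaled local background. Gene spans (GRCh38.p14, the coordinates of hg38) came from a RefSeq table without strand or exons. TSSs came from RefSeq promoter windows. All 467 symbols of the 15 gene lists were found. Scripts ran in Python 3.11.15 with pandas 2.3.3, SciPy 1.17.1, Matplotlib 3.10.9 and NumPy 2.4.6, and the code was tested on simulated peaks.

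The members and lists were chosen with earlier results of these data known. Named loci are the extremes of each class at protein-coding genes. The classes were best lower rank in both lists, highest unpaired fold, largest and smallest width ratio, and largest shifts and rank changes. Loci with most peaks joined, split or held per gene were added, as were up to 3 members per gene list. List members were taken with pairs first and then by fold in siREXO4. Some further list members were picked after their values were seen. A few loci that the rule names are not reported here. Promoters were to be printed where the window held the summit. No named peak met this, so windows whose TSS the peak covers were used. Alternatives comprised other overlap rules, stricter peaks, lists of equal length, other gene sets and TSS windows.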

Additional observations from a re-analysis of the deposited data

How the results depend on the processing

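No paired analysis was possible because each group is 1 merged list without replicate columns, and for the same reason no replicate could be left out. Of 97 alternative values, 59 stayed within the limits set for a like value and 38 did not. A percentage had to stay inside the 95% counting interval of its main value, whereas counts, ratios and correlations had a much wider range. The tally therefore depends on the kind of value: all 24 ratios of pairs by position stayed, while 13 paired shares moved and 3 stayed. The paired siCtrl share moved from a minority to a majority with −log10 q of at least 5, but not with a fold of at least 5. The coverage ratio of farther pairs lay on either side of 1. Values below are for siCtrl and then siREXO4. The paired share was 23.8 and 8.36% with a reciprocal overlap of 50%, 39.5 and 13.6% with 50% of the narrower peak, and 44.1 and 16.1% with a gap of up to 500 bp. With −log10 q of at least 5 in both lists it was 55.1 and 12.2%, with 667 and 5884 unpaired peaks. With a fold of at least 5 it was 41.3 and 12.8%, with 1078 and 5179 unpaired. With a siREXO4 list cut to the length of siCtrl by p it was 25.8 and 25.01%, with 3343 siREXO4 peaks unpaired. With −log10 q of at least 5 in siCtrl only, chosen after seeing the data, it was 64.6 and 7.65%, with 526 siCtrl peaks unpaired. Coverage of 2 times the calling limit was reached by 8.39 and 17.2% of unpaired peaks, against 100 and 94.9% at 1 time. The 100% follows from the lower p limit of siREXO4, and the 94.9% was nearly fixed because the p limits of the lists lie close together. Genes with siCtrl peaks only numbered 933 over all genes of the table, 183 with −log10 q of at least 5, 337 with a fold of at least 5 and 1112 with lists of equal length. Genes with both numbered 744 and 795 under the stricter q and fold, and siREXO4-only genes 2431 with equal length. The TSS measures were added after seeing the data. Shares of summits near a TSS in paired siCtrl, unpaired siCtrl and unpaired siREXO4 peaks were 19.8, 0.248 and 23.4% within 500 bp and 25.1, 2.85 and 29.7% within 2000 bp. Paired siCtrl and unpaired siREXO4 shares were 33.8 and 40.1% at −log10 q of at least 5 and 34.0 and 40.0% at a fold of at least 5. Width, summit shift, rank correlation and the coverage and width ratios by position stayed within those limits under each setting run, also when farther pairs were limited to summits over 2 kb from any gene boundary (coverage ratio 0.988 against 1.01, width ratio 1.16). With the stricter lists, fewer peaks entered; other causes were not tested. Read depth is unknown, so peaks near the calling limit cannot be told from absent ones.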

Other observations

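Pairing differed between chromosomes. The share of siCtrl peaks with a siREXO4 peak ran from 25.8% on chromosome 18 (16 of 62) to 73.6% on chromosome 21 (92 of 125), with 56.9% on chromosome 19 and 55.3% on chromosome 22. On chromosome 21, 77 of the 125 siCtrl peaks lay below 15 Mb, and 66 of these were paired (85.7%). Above 15 Mb, 26 of 48 were (54.2%). The ratio of siREXO4 to siCtrl peak numbers was lowest on chromosome 21, at 1.66, and highest on X, at 6.06 (212 and 35 peaks), against 3.96 on chromosome 19. A further 167 siCtrl and 470 siREXO4 peaks lay on sequences outside chromosomes 1 to 22 and X and were left out.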
